A study of Mus musculus with 12 samples.

Results

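The nuclear genes of the mitochondrial respiratory chain were described here by the acetylation of histone H3 at lysine 14 (H3K14ac) over their starts and bodies. Genes were taken by symbol (Ndufa, Ndufb, Ndufc, Ndufs and Ndufv genes with a number, Sdha to Sdhd, Uqcr genes, Cox4 to Cox8 genes and Atp5 genes) where they lay on an autosome and in both deposited count tables. Of 85 symbols that matched in RefSeq, 2 (Cox6c2 and Ndufb1) had no row in the tables used here and 3 lay on the X chromosome (Ndufb11, Ndufa1 and Cox7b). This left 80 genes of 27095, with 34 in complex I, 4 in complex II, 8 in complex III, 17 in complex IV and 17 in complex V. Ndufa4 was kept with complex I by its symbol, although its protein is now assigned to complex IV.

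H3K14ac is a histone mark found over active gene starts and laid down in mouse largely by the acetyltransferase HBO1, the product of Kat7. The respiratory chain passes electrons from NADH (complex I) and succinate (complex II) through complex III to oxygen at complex IV, and complex V uses the resulting proton gradient to make ATP. Most subunits are encoded in the nucleus, and neural precursors are known to lean more on glycolysis than the neurons they give rise to.

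The cells were cultures of neural stem and progenitor cells (NSPCs) made from E14.5 mouse cortices and ganglionic eminences. Differentiating cells had been moved onto laminin and cortical neuron medium, and proliferating cells were grown as neurospheres. In each stage there were 3 libraries of H3K14ac ChIP from wild-type (WT) cells, and 1 library each of H3K14ac ChIP from Hbo1 null cells, of IgG ChIP and of WT input chromatin; the labels give no genotype for the IgG libraries, and nothing on how or when Hbo1 was deleted. The study names 4 WT foetuses, but no label ties a replicate number to a foetus or a culture, so the p-values rest on variation between libraries that could be technical. Such cultures mix cell states, and fewer cells with the mark cannot be told apart from less mark per cell.

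Gene body totals, the sum of a library's counts over all genes, were 12549913 to 17074249 in differentiating WT libraries and 3992697 to 7611239 in proliferating ones. They were 2771713 and 2526252 in the differentiating and proliferating IgG libraries, 12689734 and 11871306 in the inputs, and 320601 and 64071 in the libraries labelled null. Kat7 itself had 11 gene body counts in the differentiating null library (95% exact Poisson interval 5.49 to 19.7, with 11.3 at the WT share) and 4 in the proliferating one (1.09 to 10.2, with 1.88 at the WT share), which are too few to check the label. At the starts of 8 neural stem and progenitor markers the summed WT signal was 0.88 and 1.81 above input on the log2 scale in differentiating and proliferating cells. At 8 microglia and endothelial markers the same values were −0.02 and −0.19. Values are CPM, counts per 1000000 gene body counts of the same library, in the window of 1000 bases at a gene's start (TSS window), unless stated otherwise. Cox6a2, at 932 bases, is the one gene of the set shorter than the window.

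The starts of these genes carry sequences known for this set. Promoter sequence from RefSeq (GRCm38.p6, 250 bases before to 50 after the start) was at hand for 65 of the 80 genes. The motif of the transcription factor NRF1, read as GCGC, any base and TGCGC, stood on either strand in 16 of the 65, or 24.6%, against 6.5% of 18458 promoters. CCGGAAG, the ETS motif read by GABPA, stood in 16 (24.6%) against 11.7%, and AAGATGGCG, the motif of YY1, in 6 (9.23%) against 1.92%. Any of the 3 was present in 33 (50.8%) against 18.2%. None of the 3 motifs contains another, and 1 promoter can hold several. The 250 bases before the start are shown for an ATP synthase ring gene and a pair of complex I genes that carry these letters, in capitals. They lie at chr15:102671048-102671297, minus strand (Atp5g2), chr16:37654369-37654618, minus strand (Ndufb4) and chr2:90904722-90904971, minus strand (Ndufs3), and the capitals mark the NRF1 letters or their reverse complement in Atp5g2 and Ndufb4 and CCGGAAG in Ndufs3.
Atp5g2: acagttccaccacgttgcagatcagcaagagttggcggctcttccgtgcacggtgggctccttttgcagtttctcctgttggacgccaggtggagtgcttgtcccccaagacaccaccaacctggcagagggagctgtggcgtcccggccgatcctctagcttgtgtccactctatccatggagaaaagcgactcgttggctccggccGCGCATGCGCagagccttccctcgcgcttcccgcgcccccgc
Ndufb4: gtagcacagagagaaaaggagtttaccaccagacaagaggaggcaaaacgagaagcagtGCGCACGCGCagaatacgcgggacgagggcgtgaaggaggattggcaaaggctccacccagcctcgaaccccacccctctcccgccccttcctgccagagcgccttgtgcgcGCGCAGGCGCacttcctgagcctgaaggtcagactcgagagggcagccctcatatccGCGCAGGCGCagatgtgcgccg
Ndufs3: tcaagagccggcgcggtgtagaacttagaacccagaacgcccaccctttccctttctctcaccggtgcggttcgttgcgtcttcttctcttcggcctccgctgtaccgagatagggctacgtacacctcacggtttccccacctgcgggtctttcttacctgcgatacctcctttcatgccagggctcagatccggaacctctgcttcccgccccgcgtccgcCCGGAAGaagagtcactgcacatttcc

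Ndufb4 held 3 such runs and the others 1 each. All 3 genes were among those above input in proliferating cells, as given below, but the letters did not separate the set. The median log2 difference from input in proliferating cells was 0.786 over 16 genes with the NRF1 letters and 0.936 over 46 without, 0.824 with CCGGAAG (16 genes) and 0.931 without (46), and 0.549 with AAGATGGCG (6 genes) and 0.931 without (56).

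Summed over all 80 starts, the H3K14ac signal was above input and IgG in proliferating WT cells and close to input in differentiating ones. The summed windows held 126, 101 and 107 CPM in the 3 differentiating WT libraries (1579, 1286 and 1827 counts) and 179, 182 and 192 CPM in the 3 proliferating ones (811, 726 and 1465 counts). The IgG libraries held 77.6 CPM (differentiating) and 95.0 CPM (proliferating), and the inputs 101 CPM (differentiating) and 105 CPM (proliferating). Every proliferating WT library was above every other library, and the differentiating WT libraries overlapped the inputs.

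**Figure D1:**
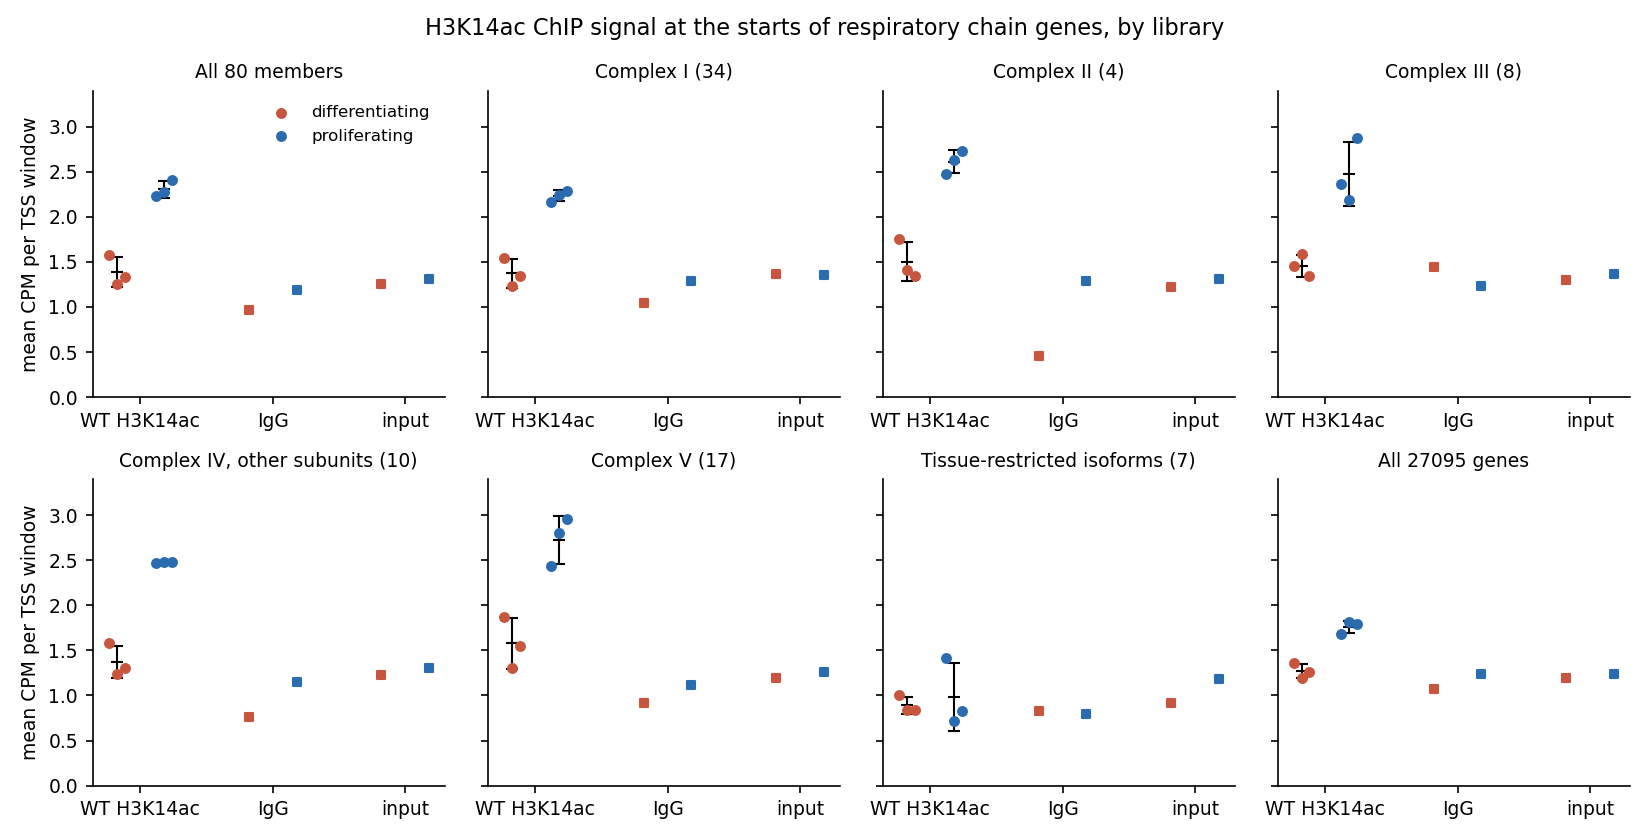
Mean CPM per TSS window for all 80 genes, each complex, the tissue-restricted isoforms and all 27095 genes, with 1 point per library, differentiating (red) left of proliferating (blue), and bars at the mean ± SD of 3 WT libraries. Proliferating WT points lie above all others in the panels of complexes I, II, III and V and of the other complex IV subunits, and not in that of the tissue-restricted isoforms.

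Against the input of the same stage, the summed signal was 0.13 ± 0.17 higher on the log2 scale in differentiating WT cells and 0.81 ± 0.06 higher in proliferating ones (mean ± SD, n = 3 libraries each), or 1.10-fold and 1.75-fold. All windows of the tables moved the same way, with 0.09 ± 0.09 in differentiating and 0.51 ± 0.06 in proliferating cells. IgG over input was −0.38 for the differentiating and −0.14 for the proliferating stage. Against IgG the sums were 0.51 ± 0.17 (differentiating) and 0.96 ± 0.06 (proliferating) higher.

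Counted gene by gene, all 3 differentiating WT libraries stood above both the IgG and the input of their stage at 23 of 80 starts, where 19.4% of all windows did. In proliferating cells the count was 42 of 80, where 30% of all windows did. By complex, 7 of 34 (I), 2 of 4 (II), 3 of 8 (III), 4 of 17 (IV) and 7 of 17 (V) did so in differentiating cells. In proliferating cells it was 15 of 34, 3 of 4, 6 of 8, 7 of 17 and 11 of 17 of the same complexes.

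The difference from input in proliferating cells was then tested gene by gene with edgeR's quasi-likelihood test, as the contrast of WT and input within that stage. Of 80 genes, 76 had a mean count of at least 10 in this fit. The mark was higher than input at 19 and lower at 0 of these, where 17.7% of all windows tested were higher and 0.524% lower at an adjusted p under 0.05. The median log2 difference was 0.90 over the 76 genes and 0.45 over all windows, and 69 of the 76 were positive. The share of 25% is above the background in this fit, but not in 3 others. Without proliferating WT replicate 3, 7 genes (9.21%) were higher against 11.2% of all windows. With TMM scaling it was 1 (1.32%) against 6.74%, and with DESeq2 4 (5.26%) against 8.63%. Without proliferating WT replicate 1, 17 (21.5%) were higher against 15.9%, and 1 (1.27%) was lower against 0.649%.

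**Figure D2:**
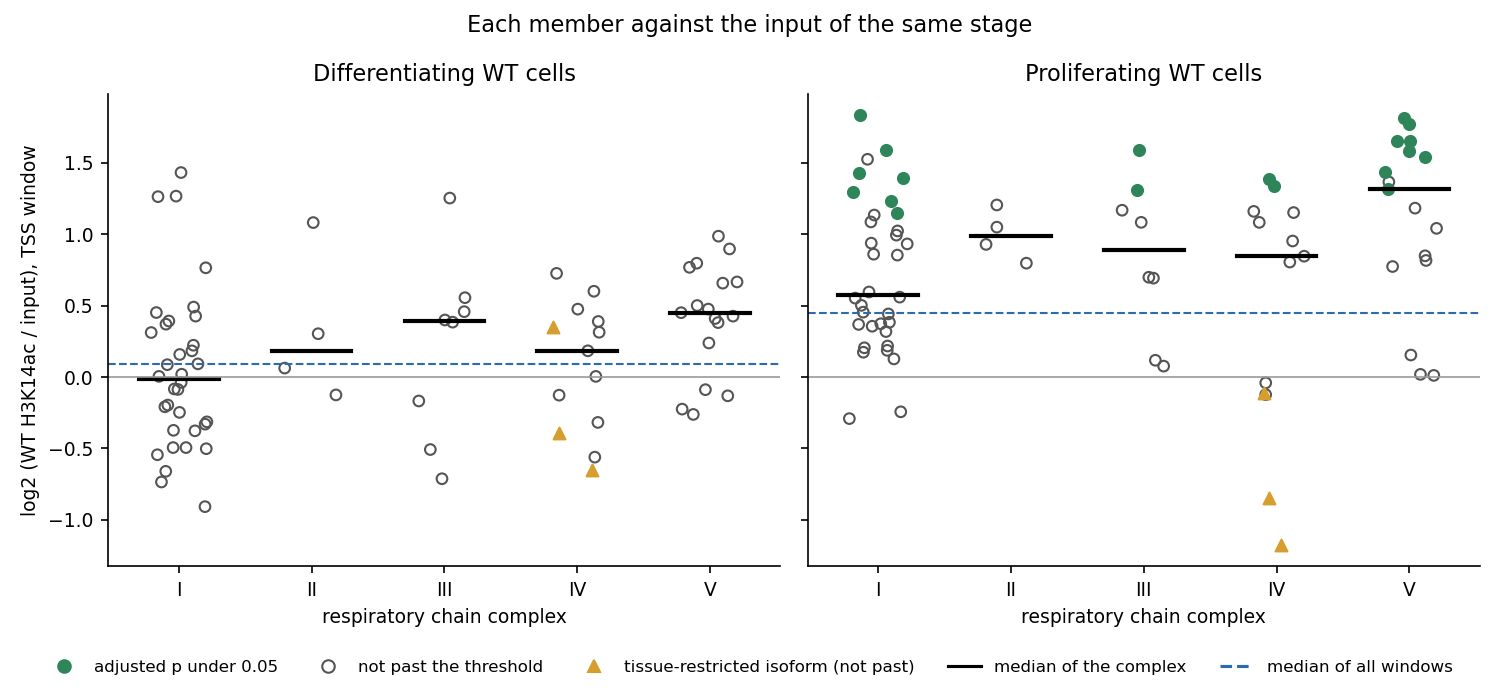
Log2 of WT over input at the TSS window of each tested gene, by complex, in differentiating (left) and proliferating cells (right), with 76 genes in each panel. Filled green points passed an adjusted p of 0.05 in edgeR (0 on the left, 19 on the right), triangles are tissue-restricted isoforms, black lines are medians of a complex and dashed lines the median of all windows.

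Against 17.7% of all windows, complex V, the ATP synthase, held the most such genes for its size, with 8 of 17. Of these, the windows of Atp5j (Gabpa), Atp5l (Gm30934) and Atp5d (Cbarp) overlap another gene, named in brackets. Those of Atp5a1 and Atp5mpl could not be placed. Complex V was not summed without these genes. Atp5j, which encodes coupling factor 6 of the peripheral stalk (chr16:84827871-84835857, minus strand), had 2.07, 1.41 and 1.58 CPM in differentiating WT libraries against 1.18 CPM in their input. In proliferating WT libraries it had 3.96, 6.01 and 3.55 CPM against 1.26 CPM in their input. The proliferating values did not overlap any other library, and the log2 difference from input was 1.77 (SE 0.46, edgeR adjusted p 0.00204). Its first 1000 bases overlap those of Gabpa, which encodes the ETS factor named above, and counts of the pair cannot be told apart there.

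Atp5l, subunit g of the membrane part, had 2.20, 3.26 and 4.07 CPM in proliferating WT libraries against 0.927 CPM in input, a log2 difference of 1.82 (SE 0.50, edgeR adjusted p 0.00392). In differentiating cells its WT values of 1.99, 0.939 and 2.23 CPM lay around the 2.05 CPM of the input. Atp5mpl, a small proteolipid of the same part, was 1.58 higher than input in proliferating cells (SE 0.48, adjusted p 0.00957). Atp5md, Atp5d, Atp5a1, Atp5g2 and Atp5g3 also passed. The c-ring is encoded by 3 genes with the same mature protein, of which Atp5g2 and Atp5g3 passed and Atp5g1 did not. They were not tested against each other. Atp5g2 had 4.84, 5.26 and 3.42 CPM in proliferating WT libraries against 1.60 CPM in input, and Atp5g3 had 2.20, 3.01 and 3.42 CPM against 0.927 CPM. Atp5g1 had 1.10, 0.501 and 2.37 CPM against 1.52 CPM, so its WT libraries overlapped the input, and its values also overlapped those of Atp5g3. Over all WT libraries Atp5g2 was the highest of complex V, at 3.20 CPM, and Atp5k, subunit e, the lowest, at 1.26 CPM.

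In complex I, the NADH dehydrogenase, 7 of 34 genes were higher than input in proliferating cells, near the 17.7% of all windows. Ndufc2, an accessory subunit of the membrane arm, had 2.42, 3.76 and 3.02 CPM in proliferating WT libraries against 0.842 CPM in input, and 1.83, 1.41 and 1.35 CPM in differentiating WT libraries against 1.10 CPM. Its log2 difference in proliferating cells was 1.84 (SE 0.50, edgeR adjusted p 0.00327). Its proliferating IgG library held 1.98 CPM, which lies below the WT values but above the input. Ndufs3, a core subunit near the quinone site, was 1.59 higher (SE 0.49, adjusted p 0.0114). Ndufv2, an iron-sulphur subunit of the NADH-oxidising tip, was 1.43 higher (SE 0.49, adjusted p 0.0234). Ndufa6, Ndufs1, Ndufc1 and Ndufb4 were the other 4. Ndufb4 had the highest mean over the WT libraries in complex I, at 2.84 CPM, and Ndufs8, a core iron-sulphur subunit, the lowest, at 1.16 CPM.

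Complex II, succinate dehydrogenase, had 0 of 4 genes past the threshold in proliferating cells, where 17.7% of all windows were higher. In these cells 4 of 4 genes were positive, with a median of 0.99. Sdha, the flavoprotein, had 2.20, 1.50 and 2.37 CPM in proliferating WT libraries against 1.10 CPM in input. Sdhb, the iron-sulphur subunit, had 2.86, 3.26 and 2.89 CPM against 1.43 CPM, and was the highest of the 4 over all WT libraries, at 2.37 CPM. Of the membrane anchors, Sdhc had 1.54, 3.01 and 3.81 CPM against 1.26 CPM (log2 difference 1.21, SE 0.47, edgeR adjusted p 0.0515) and Sdhd had 3.30, 2.76 and 1.84 CPM against 1.43 CPM. In all 4 genes every proliferating WT library was above its input. At Sdhb, Sdhc and Sdhd, but not at Sdha, every one was above both controls, as at 30% of all windows.

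In complex III, 2 of 8 genes passed, where 17.7% of all windows did. Uqcrfs1, the Rieske iron-sulphur protein, had 3.08, 2.25 and 4.73 CPM in proliferating WT libraries against 1.18 CPM in input (log2 difference 1.59, SE 0.46, edgeR adjusted p 0.00672). Uqcrq, a small membrane subunit, was 1.31 higher (SE 0.46, adjusted p 0.0288). Uqcrc1, a core protein, had 0.881, 1.50 and 2.10 CPM against 1.52 CPM in input and was not separated from it. In complex IV, cytochrome c oxidase, 2 of 13 tested genes passed, near the 17.7% of all windows. Cox6c had 4.40, 3.01 and 3.29 CPM in proliferating WT libraries against 1.35 CPM in input (1.39, SE 0.47, adjusted p 0.0219), and Cox7c had 3.08, 3.01 and 3.42 CPM against 1.26 CPM (1.34, SE 0.47, adjusted p 0.0296). Both encode small nuclear subunits of the complex.

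In differentiating WT cells the same contrast called 0 of 76 genes in either direction, where 0.0835% of all windows were higher and 0.00464% lower; at an unadjusted p under 0.05, 5 genes (6.58%) were higher and 1 (1.32%) lower, where 6.86% and 3% of all windows were, and DESeq2 called 0 of all windows. The median log2 difference was 0.18, and 0.09 over all windows. Ndufv2 had the smallest p of the set, with 2.87, 1.88 and 2.17 CPM in differentiating WT libraries against 0.946 CPM in input (1.27, SE 0.48, edgeR adjusted p 0.316). Fitted over both stages, 8 of 76 genes were higher than input and 0 lower, where 11.6% of all windows were higher and 0.881% lower, so the set was near the background. These were Ndufv2 (1.36, edgeR adjusted p 0.0123) and Ndufc2 of complex I, Uqcrfs1 of complex III, and Atp5g3, Atp5g2, Atp5mpl, Atp5j and Atp5d of complex V. With TMM scaling 1 gene (1.32%) was higher, where 6.48% of all windows were. Without the proliferating input it was 0 genes, where 0.12% of all windows were higher. Without the differentiating input it was 22 (29.3%), above the 18.9% of all windows. Without proliferating replicate 1, 2 or 3 or differentiating replicate 1 or 3 the count was 4, 5, 3, 1 and 5. The shares of all windows were then 9.81%, 8.41%, 6.98%, 7.79% and 10.5%.

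Over IgG in both stages, 61 of the 80 genes could be tested, and 3 were higher and 0 lower, where 5.13% of all windows were higher and 0.205% lower. The 3 were Sdhd, Ndufa7, an accessory subunit of complex I (2.99, SE 0.97, edgeR adjusted p 0.0453), and Cox6c (2.17, SE 0.71, adjusted p 0.0478). Sdhd was at 0 in both IgG libraries. Set against the 3 counts that a 0 allows over both, its WT mean of 2.09 ± 0.778 CPM (SD, n = 6) was 3.69-fold as high. This allows for counting error in IgG and not for the spread of the WT libraries. Ndufb10 was also at 0 in both IgG libraries, at 2.17-fold by the same rule, and was not among the 3 called. Without the proliferating IgG library 0 genes were called, where 0% of all windows were higher and 0.0307% lower. Without differentiating WT replicate 2, 6 (10.2%) were higher, where 9.14% of all windows were. Without proliferating replicate 2 or 3 the count was 1 each (1.52% and 1.82%), where 2.74% and 3.85% of all windows were. Without differentiating replicate 3 it was 5 (9.8%), where 8.43% of all windows were.

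The complexes were compared within each library, which needs no scaling. The mean signal per start in complex V over that in complex I was 1.21, 1.06 and 1.15 in differentiating WT libraries and 1.12, 1.25 and 1.29 in proliferating WT libraries. It was 0.878 and 0.865 in the differentiating and proliferating IgG libraries and 0.875 and 0.932 in the inputs. All 6 WT libraries were thus above 1 and all 4 controls below it. Windows that overlap another gene or could not be placed were kept in this ratio. Complex II over complex I went the same way, but the lowest WT library (1.00) and the highest control (0.995) nearly met. It was at 1.14, 1.14 and 1.00 in differentiating and 1.14, 1.17 and 1.19 in proliferating WT libraries. The controls were at 0.434 and 0.995 in the differentiating and proliferating IgG libraries and 0.893 and 0.963 in the inputs. Complex III over complex I overlapped, at 0.942 to 1.29 in WT libraries and 0.951 to 1.39 in controls, and complex IV over complex I was at 0.780 to 0.937 in WT libraries and 0.755 to 0.925 in controls. Without the tissue-restricted isoforms described below, complex IV over complex I was at 0.968 to 1.14 in WT libraries and 0.729 to 0.963 in controls. The lowest WT library then lay just above the highest control. In complex I the mean was 1.54, 1.23 and 1.34 CPM per start in differentiating WT libraries and 2.17, 2.25 and 2.29 CPM in proliferating ones. In complex V it was 1.87, 1.31 and 1.55 CPM in differentiating and 2.43, 2.80 and 2.95 CPM in proliferating WT libraries.

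Against input, the sums of complexes I to V were 0.00 ± 0.17, 0.29 ± 0.20, 0.16 ± 0.12, 0.09 ± 0.17 and 0.38 ± 0.26 higher on the log2 scale in differentiating cells (SD, n = 3). In proliferating cells they were 0.72 ± 0.04, 1.00 ± 0.07, 0.85 ± 0.20, 0.57 ± 0.11 and 1.11 ± 0.14 higher. Complex V had the highest sum and complex IV the lowest in proliferating cells, and in either stage neighbours in the order overlapped between libraries. The sum of complex IV includes its tissue-restricted isoforms, and its higher value without them is given below. Scaled to the totals of the TSS windows in place of the gene bodies, complexes I to V were 0.22, 0.49, 0.34, 0.06 and 0.60 above input in proliferating cells, and all 80 genes 0.30. With Ndufa4 counted in complex IV, the sums of complexes I and IV stayed above input in proliferating cells. In differentiating cells the sum of complex I, at 0.00 ± 0.17, had no clear side of input.

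In complex IV, 7 of the 17 genes encode isoforms known mainly from other tissues. These are Cox6a2, Cox7a1 and Cox8b of heart and skeletal muscle, Cox6b2, Cox7b2 and Cox8c of testis, and Cox4i2, known from lung and low oxygen. Their summed windows were −0.04 ± 0.15 (differentiating) and −0.32 ± 0.52 (proliferating) against input on the log2 scale, while the other 10 genes of complex IV were at 0.15 ± 0.19 and 0.92 ± 0.01. Without proliferating replicate 1 the isoforms were at −0.62 in proliferating cells, and without replicate 2 at −0.13. Within a library, the mean of the isoforms over that of the other 10 was 0.635, 0.678 and 0.644 in differentiating WT libraries and 0.574, 0.289 and 0.333 in proliferating ones, against 0.742 and 0.903 in the differentiating and proliferating inputs. It was 1.09 and 0.690 in the IgG libraries. All 3 proliferating WT libraries were above both controls at 0 of 7 isoform starts and at 7 of the 10 others.

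Cox8b had 1.04, 1.25 and 1.05 CPM in differentiating WT libraries and 1.54, 0.751 and 0 CPM in proliferating ones, against 0.867 and 1.43 CPM in the differentiating and proliferating inputs. Its broadly used partner Cox8a had 1.59, 1.10 and 1.29 CPM in differentiating WT libraries and 2.20, 1.50 and 2.50 CPM in proliferating ones, with inputs of 0.867 and 1.01 CPM. The other 6 isoforms ranged from 0.527 CPM (Cox6b2) to 1.51 CPM (Cox6a2) in differentiating WT libraries. In proliferating WT libraries Cox7a1 had 0.881, 0.250 and 1.18 CPM, Cox6a2 1.10, 0.751 and 0.657 CPM, and Cox7b2 0.440, 1.25 and 0.920 CPM. In the same libraries Cox4i2 had 2.42, 0.501 and 0.920 CPM, Cox6b2 1.98, 1.25 and 1.58 CPM, and Cox8c 1.54, 0.250 and 0.526 CPM. Proliferating replicate 1 was the highest of the 3 at 5 of these 7 starts. Single starts hold few counts (7, 3 and 0 at Cox8b in proliferating cells). In proliferating cells 3 of the 7 could be tested against input and 0 passed, and the rest had too few counts to test.

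**Figure D3:**
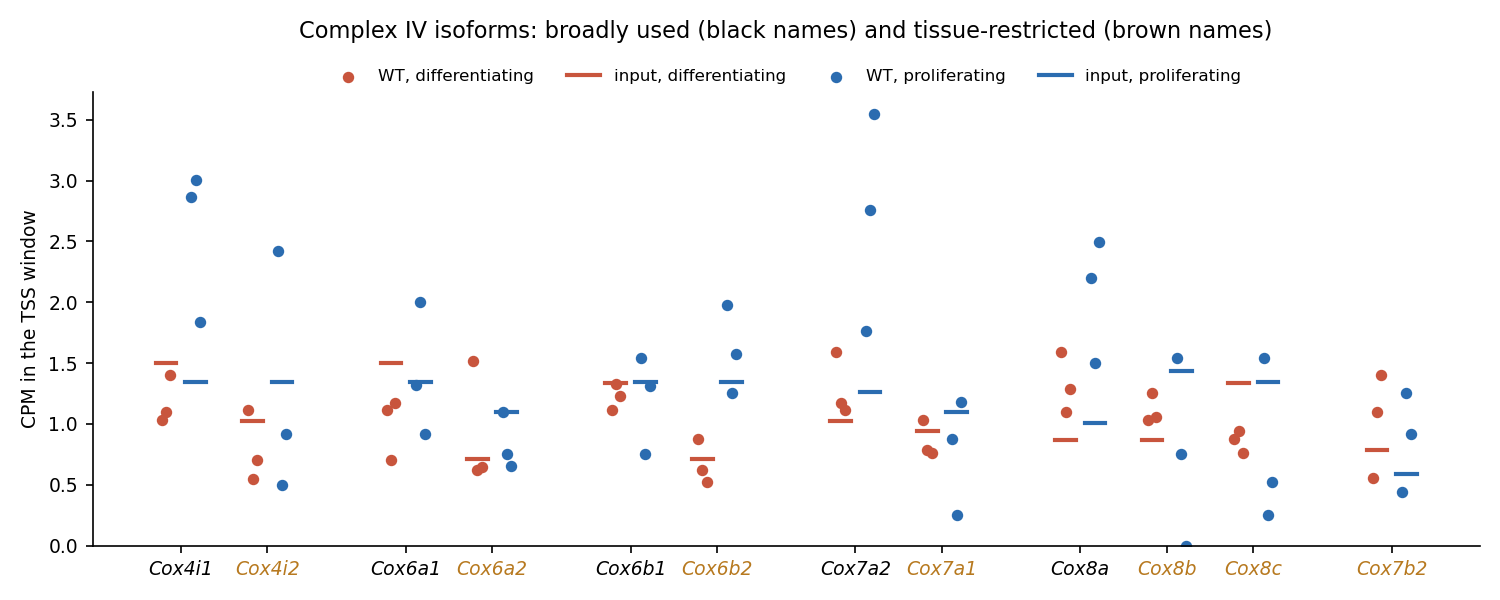
CPM in the TSS window for broadly used (black) and tissue-restricted (brown) subunit isoforms of complex IV, with points for WT libraries, short lines for the input of the stage, and differentiating (red) left of proliferating (blue). Proliferating WT points of Cox8a lie at 1.50 to 2.50 CPM, above their input, and those of Cox8b at 0 to 1.54 CPM, around it.

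The isoform promoters also differed in composition. Of the 4 isoform genes with a RefSeq promoter, the median number of CpG dinucleotides in 300 bases was 8.5, against 20 in the other 61 genes and 13 in all promoters, and their median GC content was 50.8% against 58.7% and 56%. The pair of Cox8 genes shows this at chr7:140900447-140900696, minus strand (Cox8b) and chr19:7217617-7217866, minus strand (Cox8a), with CpG in capitals.
Cox8b: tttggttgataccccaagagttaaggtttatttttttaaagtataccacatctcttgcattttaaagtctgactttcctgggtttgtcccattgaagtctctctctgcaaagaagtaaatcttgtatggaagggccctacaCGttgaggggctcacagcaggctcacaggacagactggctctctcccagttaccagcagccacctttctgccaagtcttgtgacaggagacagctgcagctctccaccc
Cox8a: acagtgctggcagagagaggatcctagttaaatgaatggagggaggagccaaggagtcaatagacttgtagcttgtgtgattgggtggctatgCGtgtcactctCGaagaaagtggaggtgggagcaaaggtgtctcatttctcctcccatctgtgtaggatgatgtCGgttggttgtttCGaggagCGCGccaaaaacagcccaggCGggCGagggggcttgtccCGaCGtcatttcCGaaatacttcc

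Cox8b held 1 CpG and Cox8a 11 in these 250 bases. Over 62 genes of the set, the number of CpG and the log2 difference from input in proliferating cells had a Spearman's rho of 0.14 and a Pearson's r of 0.289, across genes that share the same libraries and differ in GC content.

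The stage comparison asked whether H3K14ac at these starts differed between differentiating and proliferating WT cells. Of the 80 genes 73 were tested with edgeR after TMM scaling, and 2 fell in differentiating cells and 0 rose, where 4.42% of all windows fell and 2.04% rose. At an unadjusted p under 0.05, 10 (13.7%) were lower and 0 higher, where 13.1% and 9.67% of all windows were, and DESeq2 called 1 lower and 0 higher. The set was thus close to the background in calls, while 56 of the 73 values were negative and the median log2 change was −0.27, against 0.03 over all windows. Without scaling beyond gene body totals, the medians were −0.77 and −0.47 and 29 of the 73 genes (39.7%) fell, where 25.7% of all windows did; this scaling moves all windows alike. The CPM of all 3 differentiating libraries lay below that of all 3 proliferating ones at 41 of the 73 starts, where 33.7% of all windows did. The reverse held at 0 of 73, where 2.51% of all windows did.

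The 2 that fell were Atp5j and Cox5b. Atp5j, whose values are above, changed by −0.86 (SE 0.28, edgeR adjusted p 0.0407), lower in 3 of 3 libraries. Cox5b, a matrix-facing subunit of complex IV (chr1:36691487-36693388, plus strand), had 1.12, 0.939 and 0.937 CPM in differentiating WT libraries and 3.30, 3.26 and 2.23 CPM in proliferating ones. The inputs held 0.709 CPM (differentiating) and 1.60 CPM (proliferating), so the inputs differed in the same direction. The change was −0.98 (SE 0.32, adjusted p 0.0429). Without proliferating replicate 2 or 3, or any differentiating replicate, 0 genes fell, and 1, Atp5j, did so without proliferating replicate 1. In the last case Cox8b was called higher in differentiating cells.

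**Figure D4:**
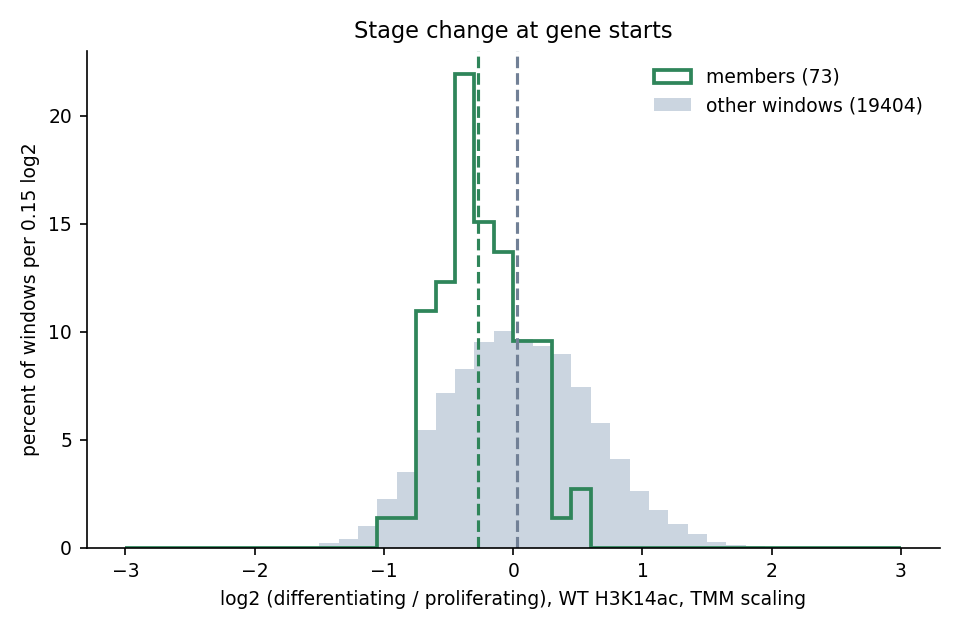
Distribution of the log2 change at gene starts, differentiating over proliferating WT cells with TMM scaling, for the 73 tested respiratory chain genes (green outline) and 19404 other windows (grey), as percent of windows per bin. Dashed lines mark the medians, −0.27 for the respiratory chain genes and 0.03 for the others.

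By complex, the median stage change was −0.21 (I), −0.32 (II), −0.22 (III), −0.32 (IV) and −0.27 (V). The smallest p in complexes without a call belonged to Ndufb4 (−0.65, edgeR adjusted p 0.139), Sdhc (−0.41, adjusted p 0.412) and Uqcrfs1 (−0.74, adjusted p 0.0938). On the summed CPM, differentiating over proliferating WT was −0.73 on the log2 scale (0.603-fold) and input was −0.06 (0.960-fold), against −0.47 (0.723-fold) for WT over all windows. The stage change beyond that of the input, fitted as an interaction in edgeR, called 0 of 76 genes in either direction, where 0% of all windows were higher and 0.0278% lower; 8 genes (10.5%) were lower at an unadjusted p under 0.05, where 9.51% of all windows were, and DESeq2 called 0 of all windows. The median was −0.83 over the 76 and −0.37 over all windows, and Atp5l had the smallest p (−2.04, SE 0.66, adjusted p 0.197).

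The start share, the counts in the windows as percent of those over the gene bodies, was 15.2%, 12.1% and 12.7% in differentiating WT libraries and 23.3%, 21.4% and 23.1% in proliferating ones. In IgG it was 8.39% and 10.2%, and in input 10.7% and 11.1%, for the differentiating and proliferating stage. All 6 WT libraries were above all 4 controls, and the stages did not overlap. Over all genes the stages did not overlap either, with start shares of 3.24% to 3.68% in differentiating and 4.56% to 4.90% in proliferating WT libraries, while the IgG and input libraries, at 2.90% to 3.36%, overlapped the differentiating ones.

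Over whole gene bodies, which include the start, the set lay below input. With both stages in 1 fit, 25 of 79 genes were lower and 2 higher than input, where 21.3% of all gene bodies were lower and 8.43% higher, and the median log2 difference was −0.30, against −0.14 for all. Complex I held 15 of the 25, among them Ndufa10 (−0.61, SE 0.08, edgeR adjusted p 0.000697) and Ndufa9 (−0.58). Sdhc and Sdhb of complex II (−0.52 and −0.63), Uqcrc1 and Uqcr11 of complex III (−0.61 and −0.63), Cox6b1 of complex IV (−0.60) and Atp5j2 and Atp5o of complex V (−0.58 and −0.54) were also lower. The 2 higher were Cox7c (1.21, SE 0.25, adjusted p 0.00517), whose window makes up much of its 1998 bases, and Cox7b2 (0.52, adjusted p 0.00478). Without the proliferating input 0 genes were called, and 0% of all gene bodies were. Without the differentiating input 10 (12.7%) were lower and 1 (1.27%) higher, where 6.33% and 2.94% of all gene bodies were. With TMM scaling 16 (20.3%) were lower, where 11% of all gene bodies were. Between stages, 0 of 79 gene bodies changed in edgeR, where 0.126% of all were lower and 0.0366% higher. At an unadjusted p under 0.05, 6 (7.59%) were higher and 10 (12.7%) lower, where 4.83% and 6.39% of all gene bodies were. DESeq2 called 0 of the set, where 0.59% of all gene bodies were lower and 0.151% higher. At an unadjusted p under 0.05 in DESeq2, 1 of the set was higher and 8 lower, against 6.53% of all gene bodies in both directions together. Without TMM edgeR called 0 of the set. At an unadjusted p under 0.05, 1 was then higher and 10 lower, against 11.2% of all in both directions together.

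The libraries labelled null were too shallow for single genes. Their summed windows held 23 counts in the differentiating library, against 32.3 at the input's share (ratio 0.712, 95% exact Poisson interval 0.451 to 1.07) and 35.6 at the WT share. The proliferating library held 1 count, against 6.73 at the input's share (ratio 0.149, interval 0.00376 to 0.828) and 11.8 at the WT share. Over all windows the ratios to input were 0.907 and 0.843 in the differentiating and proliferating null libraries. The intervals cover counting error only, and each null library is the only one of its stage.

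Other genes of mitochondrial energy metabolism were read from the same fits. In these, 17.7% of all windows were higher than input in proliferating cells. With stage, 4.42% of all windows fell and 2.04% rose in differentiating cells. Of 12 regulators of mitochondrial biogenesis, 6 were higher than input in proliferating cells, led by Nrf1 (3.09, edgeR adjusted p 5.79e-06), and 4 of 11 tested fell in differentiating cells, among them Ppargc1a, a coactivator of mitochondrial genes (−1.37, adjusted p 0.00106), and Nrf1 (−0.95, adjusted p 0.0181). The other 2 that fell were Gabpb1 and Gabpa, and the start of Gabpa is shared with Atp5j. Assembly factors were higher than input in proliferating cells at 1 of 14 (complex I, Timmdc1), 0 of 3 (complex II), 1 of 6 (complex III, Ttc19), 4 of 20 (complex IV, led by Cox11 and Surf1) and 2 of 4 (ATP synthase, Fmc1 and Atpaf1). Ttc19 (−1.26, adjusted p 0.00206) and Surf1 (−1.05, adjusted p 0.0411) were the 2 assembly factors that fell in differentiating cells. Of the electron carriers and coenzyme Q genes 4 of 16 were higher than input in proliferating cells, led by Coq7, and 0 of 15 changed with stage. Of the glycolysis genes 2 of 16, Pfkm and Aldoa, were higher than input, and 0 of 15 changed with stage. Of the stem and progenitor markers 7 of 8 were higher than input in proliferating cells, and Nes fell in differentiating ones (−1.12, adjusted p 0.00525). Of 2 neuronal markers tested, Map2 was higher than input, and 0 of 7 microglia and endothelial markers were.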

How the data were processed

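H3K14ac ChIP, IgG and input libraries were counted per gene in 2 tables of raw counts deposited by the authors, one over windows of 1000 bases at gene starts and one over gene bodies. Per the submitters' processing notes, bcl2fastq, featureCounts and mm10 were used; versions and the aligner are not given in the sources used here, nor is the treatment of reads that map to several places, which bears on subunits with processed pseudogenes. Gene IDs were matched to RefSeq (GRCm38.p6), 25204 of 27095 with a symbol. The 24 files per sample equalled the table columns. First-kilobase windows, placed from RefSeq for 65 genes, overlapped another gene in 7. The 12 libraries were grouped by their titles.

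Tests used edgeR 4.0.16 in R 4.3.3 (quasi-likelihood, two-sided, prior count 0.125, mean count of at least 10), adjusted by Benjamini-Hochberg over all windows tested, threshold 0.05. The stage fit used 6 WT libraries with TMM; fits against 1 control library per stage used gene body totals and a stage term, and assume that controls vary like WT libraries. Contrasts within a stage were added after the data were seen. All comparisons share the same WT libraries. DESeq2 1.42.0, other scalings, no filter, a replicate block and leaving out each library were alternatives. The fits were tested on simulated data. Single starts held few counts, so sums are given beside them.

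Members and lists were chosen with earlier results of these data known. Genes named are, per complex, those called with the 3 smallest adjusted p per comparison or the smallest p where none was, the highest and lowest mean CPM, all of complex II and all tissue-restricted isoforms; other genes named were chosen after their values were seen. Values of 1 gene that this rule names are not reported here.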

Additional observations from a re-analysis of the deposited data

Results flagged for a closer look

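A pair of results had all 3 WT libraries of 1 stage on one side of input and all 3 of the other stage on the other side. Single genes were screened for this only among those of the set called in a comparison of starts. Most of these had been called above input in proliferating cells, so that side was largely fixed by the selection. The share of all windows that meet the rule was not computed. The summed starts of the 6 complex III assembly factors were −0.267 against input on the log2 scale in differentiating and 0.919 in proliferating WT cells; this difference was not tested. Ttc19 alone was 3.34 above input in proliferating cells, Uqcc3 was at 1.05 and the other 4 at 0.10 to 0.31. Without Ttc19, an alternative chosen after seeing the data, the sums were −0.34 ± 0.13 (differentiating) and 0.42 ± 0.19 (proliferating; SD, n = 3 each). Ndufc1, a complex I subunit of the membrane arm, was at −0.315 in differentiating and 1.23 in proliferating WT cells. The direction by library was not tested as such, and the stage change of Ndufc1 beyond that of the input was −1.55 (edgeR adjusted p 0.330), which did not pass.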

How the results depend on the processing

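No called gene of the 80 changed its direction under the alternatives run; genes of the other lists were not run under them. With TMM scaling, 1 gene was above input in proliferating cells, where 6.74% of all windows were. Over both stages 1 was above and 1 below input, where 6.48% and 3.01% of all windows were. Over IgG 0 were above, where 0.106% of all windows were. Of the gene bodies 16 (20.3%) were below input, where 11% of all were. Over all windows, 1961 differed from input in proliferating cells (3938 with gene body totals), 53 from IgG (702) and 0 in the stage change beyond input (6). Without TMM, 29 genes and 5060 windows (1257 with it) changed with stage, since the median of all windows moved to −0.47. DESeq2 called 1 gene and 588 windows for stage, 182 gene bodies (40 in edgeR), 4 genes and 1861 windows over input in proliferating cells, 0 windows in differentiating cells (19) and in the stage change beyond input, and 0 genes and 371 windows over IgG. With no filter the counts were 31 windows over input in differentiating cells and 0 for the stage change beyond input. Over IgG 1 gene (1.25%) was then higher, where 1.56% of all windows were.

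In deviations from the stage mean, same-numbered libraries of either stage correlated at −0.012, −0.033 and 0.004 (starts) and −0.122, 0.199 and −0.193 (bodies). Libraries with different numbers were at −0.022 to 0.032 (starts) and −0.296 to 0.274 (bodies). As these ranges are alike, the check cannot tell whether replicate numbers pair the libraries. With the number as a block, 0 genes and 761 windows changed with stage. Scaled to TSS window totals, all 80 genes were 0.30 above input and 0.44 above IgG in proliferating and 0.26 above IgG in differentiating cells, with complexes I to V at 0.22, 0.49, 0.34, 0.062 and 0.60 over input. In differentiating cells complex IV over input was then −0.0052 and complex III over IgG −0.24. Without the isoforms the proliferating value over input was 0.87; without windows that overlap another gene or could not be placed, that over IgG was 0.85 and the proliferating start share 20.4%.

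Leaving out 1 library in turn gave 319 to 1246 windows and 0 to 1 genes lower for stage, 3 to 66 gene bodies for stage, 0 to 65 windows for the stage change beyond input, 7 to 24 genes and 2531 to 4339 windows over input in proliferating and 1 to 23 windows in differentiating cells, 0 to 22 genes and 25 to 3990 windows over input in both stages, 0 to 6 genes and 5 to 1035 windows over IgG, and 0 to 2 genes above, 0 to 27 below and 0 to 10231 of all gene bodies different from input.

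Depth limits single starts, where the null and IgG libraries hold too few counts for a level of their own. The cause of these moves was not tested.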
